A study of Mus musculus with 36 samples.

Results

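The chromatin contacts described here are the promoter loops of less than 100 kb that were listed in neural stem cells (NSCs) derived from mouse embryonic stem cells (ESCs). The assay was promoter capture Hi-C (pcHiC), in which crosslinked and ligated chromatin fragments are enriched for those that carry gene promoters, so that a loop joins a captured promoter fragment to another fragment of the same chromosome. A loop was taken where the midpoints of its anchor fragments lay less than 100 kb apart and where its list held the pair in one direction only. Pairs captured and listed from both ends were left out, as were chromosome 11 and chromosome 6 from base 100000000 on. The wildtype (WT) list held 8023 such loops and the list of cells without TET enzymes (TKO) 7260. These 15283 listings stood for 12797 distinct pairs when direction counts as part of the pair, 2486 of them in both lists, out of 117899 listed loops of all kinds.

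The study asks what TET enzymes do when ESCs become NSCs. The WT group carried unmodified Tet genes and the TKO group a knockout of all 3, both in male V6.5 ESCs of mixed 129/C57BL/6 background. Preplating for 45 minutes removed the feeders from the ESCs, which then stood on gelatin with serum and LIF for 24 hours. NSC cultures were taken on day 6, at passage 1. The pcHiC samples were 1 WT and 1 TKO NSC library, crosslinked with 4% PFA and sequenced to between 170000000 and 190000000 raw read pairs; the labels do not say which line or clone was used. RNA-seq was made for 5 samples of each cell type, 3 of them WT and 2 TKO. Their titles number them as replicates, and they are called lines below. Bisulfite (4) and CUT&Tag (20) samples were not used here.

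A promoter loop is a contact that is recorded more often than its distance along the chromosome would give. Short loops often join a promoter to a nearby enhancer, to the promoter of a neighbouring gene or to the body of its own gene, and the insulator protein CTCF and the ring-shaped cohesin complex hold many of them. TET enzymes oxidize 5-methylcytosine, a step toward the loss of DNA methylation, and are known to act at enhancers and at promoters rich in CG dinucleotides. A pair that a list does not hold is called not listed here: its contact may be there but below the list's minimum score.

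The promoters of 6 genes among those whose short loops differed most in number are shown first, since the results below turn on them. They were chosen after their values were seen, and Ptpra, Isg20l2, Rrnad1 and Olig1, which differed by as much as some of them or more, are not shown. Ptn, Mtss2 and Pcp4l1 had more short loops in the WT list, and Inka1, Hpcal1 and Btbd6 more in the TKO list. Each sequence is the 250 bases before the gene's start inside the captured fragment, from RefSeq on GRCm38.p6, read 5′ to 3′ on the gene's strand, with each CG dinucleotide in capitals.
Ptn, chr6:36810180-36810429, minus strand: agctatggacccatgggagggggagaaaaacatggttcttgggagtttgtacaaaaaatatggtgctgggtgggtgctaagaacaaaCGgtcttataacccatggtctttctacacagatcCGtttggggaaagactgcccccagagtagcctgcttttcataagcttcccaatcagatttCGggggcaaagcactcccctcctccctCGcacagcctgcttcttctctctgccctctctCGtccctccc
Mtss2, chr8:110721226-110721475, plus strand: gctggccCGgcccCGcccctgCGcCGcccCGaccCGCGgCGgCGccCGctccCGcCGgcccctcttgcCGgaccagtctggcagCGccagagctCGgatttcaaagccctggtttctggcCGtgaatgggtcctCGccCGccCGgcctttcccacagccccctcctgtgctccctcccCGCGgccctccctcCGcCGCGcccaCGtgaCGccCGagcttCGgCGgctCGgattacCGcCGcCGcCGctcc
Pcp4l1, chr1:171196269-171196518, minus strand: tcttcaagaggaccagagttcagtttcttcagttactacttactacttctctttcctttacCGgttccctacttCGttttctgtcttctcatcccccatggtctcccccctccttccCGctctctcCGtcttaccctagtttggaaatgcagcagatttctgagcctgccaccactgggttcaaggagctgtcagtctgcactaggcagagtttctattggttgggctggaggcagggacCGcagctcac
Inka1, chr9:107985917-107986166, minus strand: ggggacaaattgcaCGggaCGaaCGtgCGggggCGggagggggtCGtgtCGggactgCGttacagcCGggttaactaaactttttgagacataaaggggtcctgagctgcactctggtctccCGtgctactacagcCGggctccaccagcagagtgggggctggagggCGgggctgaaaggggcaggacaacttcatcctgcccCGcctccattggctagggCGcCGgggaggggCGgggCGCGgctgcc
Hpcal1, chr12:17690559-17690808, plus strand: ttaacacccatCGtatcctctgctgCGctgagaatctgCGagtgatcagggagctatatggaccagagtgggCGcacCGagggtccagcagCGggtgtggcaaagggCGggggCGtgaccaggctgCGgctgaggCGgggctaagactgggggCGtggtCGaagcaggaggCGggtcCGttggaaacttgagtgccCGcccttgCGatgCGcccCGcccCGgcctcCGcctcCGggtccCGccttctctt
Btbd6, chr12:112976232-112976481, plus strand: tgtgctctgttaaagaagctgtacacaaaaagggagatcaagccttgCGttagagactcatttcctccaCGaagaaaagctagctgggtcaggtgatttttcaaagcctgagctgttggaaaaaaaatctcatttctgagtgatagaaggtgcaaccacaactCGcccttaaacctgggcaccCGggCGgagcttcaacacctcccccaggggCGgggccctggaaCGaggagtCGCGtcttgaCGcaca
They held 5 CG dinucleotides in Ptn, 34 in Mtss2, 5 in Pcp4l1, 18 in Inka1, 22 in Hpcal1 and 10 in Btbd6.

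At captured fragments the number of CG dinucleotides was only a little higher with a short loop than without. It was close to equal for both directions of the difference between the lists. The promoter sequences counted here were not cut to the 250 bases shown above, so the numbers are not on the same window. They belong to the first listed start of each gene, which need not lie in the captured fragment. The median was 18 (quartiles 9 and 27) in the 5108 genes with a short loop and a sequence. It was 16 (6 and 26) in the 6925 genes at captured fragments without a short loop. In all 24580 genes outside the regions left out it was 7 (3 and 20). The motif GGGCGG, which SP and KLF factors bind, was searched on both strands and stood in 59.0%, 51.3% and 35.7% of these promoters. The core of the CTCF motif, searched likewise, stood in 12.6%, 10.6% and 8.53%, and TATAAA in 8.79%, 10.7% and 14.1%. Among 223 genes with at least 3 fewer short loops in the TKO list the median was 18 CG dinucleotides, and among 196 with at least 3 more it was 17. Those groups held the CTCF core in 10.8% and 14.3% of promoters and GGGCGG in 57.0% and 63.8%. These matches describe the letters of the sequence and not binding. None of the 6 windows of 250 bases shown held the CTCF core.

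Short loops made up 20.5% of the one-direction loops of either list outside the regions left out, 8023 of 39195 in WT (exact 95% binomial interval 20.1 to 20.9%) and 7260 of 35458 in TKO (20.1 to 20.9%). They started from 4630 captured fragments in WT and 4272 in TKO, of 18290 captured fragments seen in either list. A fragment had a median length of 5126 bases in WT and 5133 in TKO, which sets the resolution of every position given here. The shortest distance was 10.02 kb in both lists, the median 56.9 kb in WT and 56.3 kb in TKO, and the middle 50% of loops lay between 30.8 and 78.7 kb in WT and between 26.1 and 78.2 kb in TKO. In WT, 1188 loops spanned 10 to 20 kb and 1006 spanned 90 to 100 kb, against 1187 and 860 in TKO. The nearest loops were thus as many in the 2 lists, and the shortfall of the TKO list lay beyond 30 kb, where each 10-kb bin held fewer loops than in WT. At the limit itself, 95 to 100 kb held 513 WT and 413 TKO loops and 100 to 105 kb held 487 and 433.

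The lists hold loops from a score of 5 on, a value the authors gave each loop. Its median was 6.03 in WT and 6.01 in TKO and its quartiles 5.42 and 7.19 in WT and 5.42 and 7.10 in TKO, with a maximum of 34.95 and 34.79. Numbers per chromosome differed in 1 direction or not at all: the TKO list held between 0.768 times as many short loops as the WT list, on chromosome 1 (398 against 518), and the same number, on chromosome 17 (544 in each). With 1 library per genotype no difference between the lists could be tested, and intervals here cover counting error only. A difference in depth or library quality cannot be told apart from one of genotype.

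**Figure D1:**
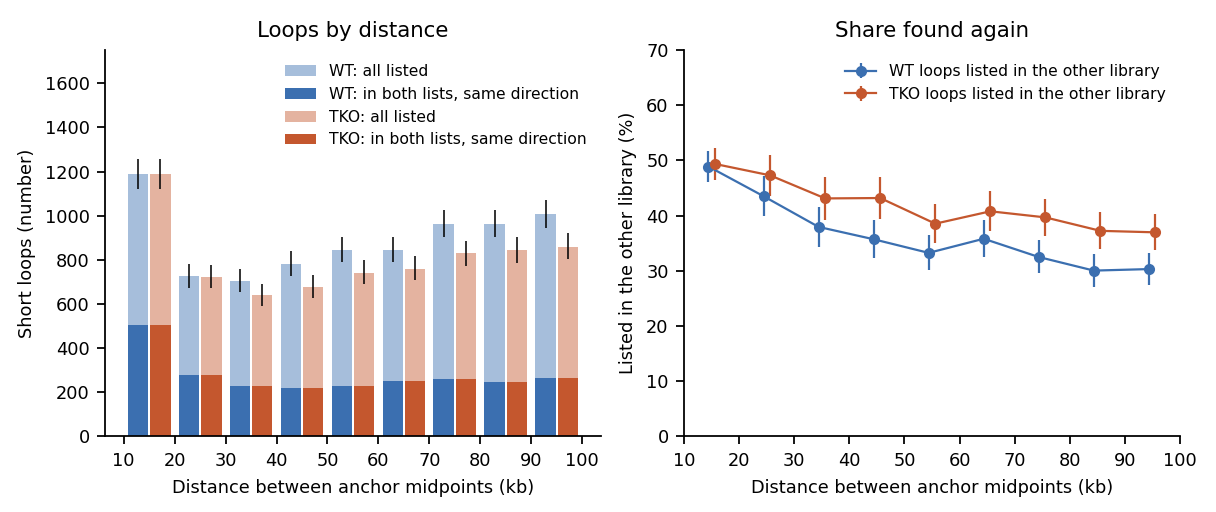
Short promoter loops by distance between anchor midpoints, in 10-kb bins, for the WT and TKO NSC lists. The left panel gives the number of loops with exact Poisson 95% intervals, the dark part of each bar being the loops held by both lists in the same direction, and the right panel the percent of each bin held by the other list in any direction, with exact binomial 95% intervals. Loops of 10 to 20 kb numbered 1188 and 1187 and were held by the other list most often (48.9% and 49.4%).

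The same fragments and direction were found in both lists for 2486 short loops, 31.0% of the WT list (30.0 to 32.0%) and 34.2% of the TKO list (33.2 to 35.3%). A further 359 WT loops (4.47%) were listed from both ends in TKO and 90 (1.12%) only from the other end, and 5088 (63.4%) were not listed in TKO. Of the TKO loops, 477 (6.57%) were listed from both ends in WT, 90 (1.24%) from the other end, and 4207 (57.9%) were not listed. In any direction the other list therefore held 36.6% of WT short loops (35.5 to 37.6%) and 42.1% of TKO short loops (40.9 to 43.2%). Allowing the other end to lie within 5 kb of a short loop of the same captured fragment in the other list gave 38.5% and 41.6%, and 10 kb gave 42.7% and 46.1%.

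Short loops recurred more often than longer ones. In any direction the other list held 21.1% of the 27059 WT and 23.8% of the 24336 TKO loops of 100 to 600 kb, and 11.6% of the 4113 and 11.99% of the 3862 loops of 600 kb and over. The intervals of these shares did not overlap those of the short loops. Within the short loops the share fell from 48.9% in WT and 49.4% in TKO at 10 to 20 kb to 30.3% and 37.0% at 90 to 100 kb. At the limit of 100 kb it was 29.4% in WT and 39.0% in TKO just inside (95 to 100 kb) and 26.1% and 32.3% just outside.

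Score and capture of the other end went with recurrence as well. Of the 3929 WT loops with scores of 5 to 6, 25.1% were listed in TKO in any direction, and of the 87 with scores of 15 and over, 75.9%. The TKO loops gave 30.8% of 3601 and 84.4% of 64. Loops not listed in the other list had median scores of 5.79 in WT and 5.77 in TKO. Over the 2486 shared loops the rank correlation of the WT and TKO scores was 0.374, a description of pairs from 2 libraries of different genotype. The other end was itself a captured fragment in 52.1% of WT and 55.8% of TKO short loops, against 25.9% and 25.4% of loops of 100 to 600 kb. Loops to a captured other end were listed in the other list in 47.2% (WT) and 51.7% (TKO) of cases, and loops to an end that was not captured in 25.01% and 29.9%. A captured end gives a pair more chances to be read, and the part this plays in the shares was not tested.

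**Figure D2:**
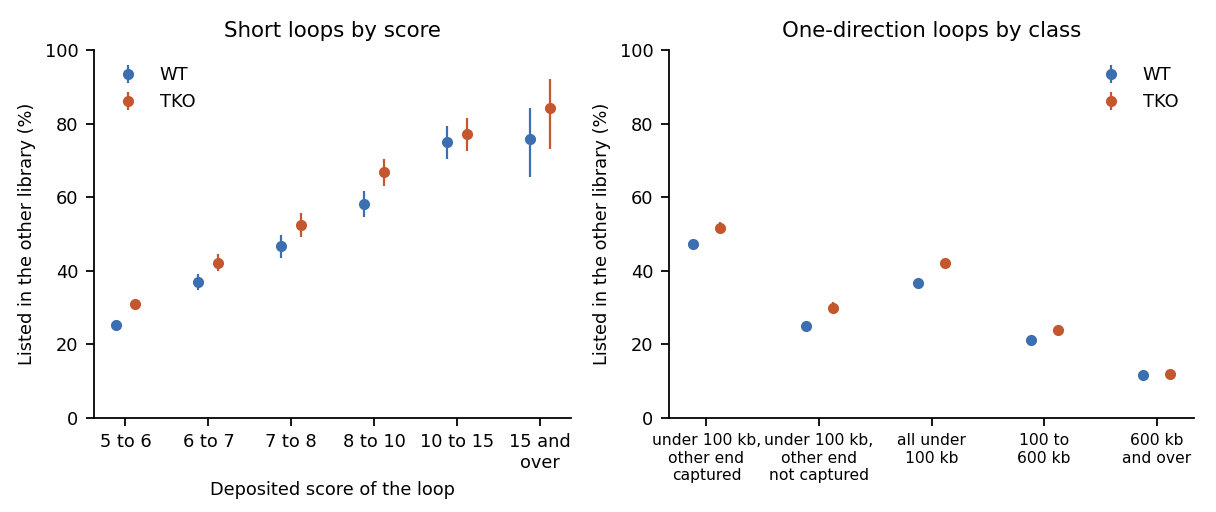
Percent of loops of the WT and TKO lists that the other list held in any direction, with exact binomial 95% intervals. The left panel bins short loops by the authors' score, and the right panel compares short loops whose other end was or was not captured with loops of 100 to 600 kb and of 600 kb and over. The share climbed from 25.1% (WT) and 30.8% (TKO) at scores of 5 to 6 to 75.9% and 84.4% at 15 and over.

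The other ends of short loops mostly lay in fragments with a start or end of another gene, counting RefSeq genes of every kind. How often any fragment at such distances holds one was not counted, so the shares below show no preference for genes. In WT 57.7% and in TKO 60.4% lay in a fragment holding the start, or an end where the strand is not given, of a gene other than that of the captured fragment. Another 6.61% and 5.87% lay in the body of the captured gene, 22.9% and 22.6% in the body of another protein-coding gene, and 12.8% and 11.2% in neither. Where the captured gene's strand was known for every gene of the fragment, 53.2% of 3847 WT loops (51.6 to 54.8%) and 51.1% of 3392 TKO loops (49.4 to 52.8%) ran upstream. Most captured fragments had a single short loop, 61.5% in WT and 63.3% in TKO, while 15 and 14 fragments had at least 10. Other ends that adjoined another end of the same fragment made up 19.4% of WT and 17.6% of TKO short loops, with runs of up to 11 and 9 neighbouring fragments. Such runs come from contiguous fragments and are not independent contacts.

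The highest scores belonged to contacts that were mostly found in both lists. The top score of each list, 34.95 in WT and 34.79 in TKO, was a 10.1-kb loop on chromosome 17 from chr17:25810048-25815106 to the fragment that holds the start of Wdr24, which encodes a subunit of a complex in nutrient sensing by mTORC1. The second of the WT list joined Sumf2 (sulfatase-modifying factor 2) to the fragment of Cct6a and Psph with 30.65 and was listed from both ends in TKO. The third, at 28.12, ran 81.9 kb from the fragment of Flot1 and Ier3 to chr17:35736429-35741433 and was shared. In TKO, Glod5 was joined to Pcsk1n over 98.1 kb with 31.90, also in WT. By contrast Nr2f6, an orphan nuclear receptor gene, was joined in TKO to the fragment of Abhd8 and Mrpl34 over 82.0 kb with 27.22, and this loop was not listed in WT. Nr2f6 RNA in NSCs read 5235, 5187 and 5235 normalized counts in WT and 3857 and 4415 in TKO, with both TKO values below all WT values (log2 fold change -0.34, SE 0.07, limma adjusted p = 0.00359).

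Among the fragments with the most short loops, that of Flot1 (a scaffold protein of membrane rafts) and Ier3 (an immediate early gene of cell survival) had 18 in WT and 11 in TKO, of which the other list held 10 WT and 10 TKO loops in any direction. Flot1 fell from 3362, 3731 and 3508 to 2994 and 2778 (log2 -0.29, SE 0.08, limma adjusted p = 0.0115, but 0.0847 without TKO line 2). Ier3, from the same fragment and with the same loops, fell from 1236, 1302 and 989 to 321 and 359 (log2 -1.78, SE 0.15, adjusted p = 3.63e-06). Genes that share a fragment share its loops, so a loop number cannot be given to one of them; 1498 of the genes with a short loop share their fragment in this way.

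RNA was then read for the genes at short loops. RNA values are the authors' read counts divided by size factors (normalized counts), from libraries of 41007791 to 49060991 recovered reads, and all fold changes are log2(TKO + 1) minus log2(WT + 1). The test was limma over all genes with a mean of at least 10, and adjusted p is its Benjamini-Hochberg value, with 0.05 as the threshold. The labels give a code per sample but not whether the samples were grown or derived apart, so the p-values measure the spread between these samples. Where a TKO line is left out below, the TKO arm is 1 library that is assumed to vary like the WT libraries. In NSCs Tet1 read 663, 717 and 901 in WT and 517 and 574 in TKO, and Tet3 4049.9, 4089 and 4208 against 2379 and 2597; both fell (log2 -0.47, SE 0.15, and -0.73, SE 0.07, adjusted p = 0.0320 and 1.60e-05), the call of Tet1 being lost under 6 alternatives (up to 0.149 without TKO line 1). Tet2 read 1276, 1295 and 1066 against 1146 and 1555 (log2 0.14, SE 0.14, adjusted p = 0.459), so transcripts of the targeted genes were still counted in the libraries labelled TKO, and the sources used here do not give the deleted parts. On chromosome 11 and distal chromosome 6, left out here, the median log2 fold change was 0.53 in each, against -0.07 to 0.01 on the other autosomes and X, and the TKO list held 2245 short one-direction loops there against 1233 in WT.

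The labelled cell type was checked against marker sums. All 6 neural stem cell markers were listed, and their sum was 101973 to 114368 in WT and 40116 to 49563 in TKO NSCs. The sums of 5 fibroblast markers (45908 to 57970 against 118139 to 140470), 4 pluripotency markers (390 to 554 against 1994 to 3752), 3 mesoderm markers (685 to 772 against 2628 to 3317) and 4 epithelial markers (1301 to 1396 against 3772 to 7647) were higher in TKO. Within the fibroblast sum Col3a1, Col1a2, Pdgfrb and Postn were higher, but Col1a1 was lower (13169.5, 15358 and 11747 in WT, 11361 and 9292 in TKO, log2 -0.38, adjusted p = 0.0177). The mesoderm sum was mostly T (626, 729 and 644 in WT, 3169 and 2557 in TKO), while Mixl1 and Tbx6 were not called (limma adjusted p = 0.159 and 0.588). Zfp42 of the pluripotency sum and Epcam of the epithelial sum were not called either (adjusted p = 0.104 and 0.269). Cdx2 was at 0 in 2 of 3 WT libraries. Sums of 4 neuronal markers overlapped (6953 to 8810 against 7128 to 8332), while Rbfox3 among them was lower (log2 -1.24, adjusted p = 0.0148). In bulk samples fewer cells of a type and less RNA per cell cannot be told apart, and this holds for every loop count and RNA value below; the part of cell makeup in them was not tested.

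Short loops were listed for 7043 genes, of 17215 at captured fragments outside the regions left out. Of these 7043 genes, 2169 had them in WT only, 1813 in TKO only and 3061 in both. RNA of 5053 of them could be tested in NSCs. Of these, 14.1% were higher and 23.1% lower in TKO. The background was near: of all 17744 genes tested, 18.2% were higher and 19.5% lower, and of the 11071 genes at captured fragments outside the regions left out, 15.4% and 22.8%. Having a short loop therefore went with little difference in how often RNA was called.

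The share of lower genes was larger where the TKO list held several loops fewer. Of the 256 tested genes with at least 3 fewer short loops in TKO, 83 were lower (32.4%, exact interval 26.7 to 38.5%) and 28 higher (10.9%, 7.39 to 15.4%), with a median log2 fold change of -0.11 against -0.03 for genes at captured fragments. With exactly 3 fewer it was 47 lower and 22 higher of 147, and with 4 or more fewer 36 lower (33.0%) and 6 higher (5.50%) of 109. With 2 fewer 24.4% were lower and with 1 fewer 24.9%, nearer the 22.8% of genes at captured fragments. In the other direction the shares stood near the background: of 201 genes with at least 3 more loops in TKO, 43 were lower (21.4%, 15.9 to 27.7%) and 35 higher (17.4%, 12.4 to 23.4%), with a median of -0.01. Of the 961 genes with equal numbers in both lists, 21.9% were lower and 14.05% higher. With 4 or more loops more, 14 were lower (17.5%) and 15 higher (18.8%) of 80. Without TKO line 1 the higher genes numbered 17 with at least 3 loops fewer and 23 with at least 3 more, and the lower genes 69 to 74 and 30 to 34 over the lines left out. In these differences a loop that the other list held from both ends counts as missing there. A set without such loops had at least 2 WT loops not listed in TKO in any direction and no TKO loop unlisted in WT. Of its 539 genes, 145 were lower (26.9%, 23.2 to 30.9%) and 58 higher (10.8%). In the set defined the other way round, 67 of 367 genes were lower (18.3%) and 64 higher (17.4%). These counts describe the groups, and genes sharing a fragment are counted separately in them.

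ESCs, in which no loops were mapped, gave a measure of the same genes before neural differentiation. Of 242 genes with at least 3 fewer short loops in TKO NSCs, 34 were lower in TKO ESCs (14.05%, 9.93 to 19.1%) and 7 higher (2.89%), beside 8.99% and 4.51% of the 10714 genes at captured fragments and 7.02% and 7.29% of all genes tested. Chromosome 8 held part of these genes: there the ESC median log2 fold change was -0.41 and 42.5% of genes were lower. Without chromosome 8 it was 18 of 216 (8.33%, 5.01 to 12.9%) beside a background of 6.36%. In NSCs chromosome 8 had a median of -0.02, and without it 73 of 230 genes (31.7%) were lower and 23 higher. Of the 193 genes with at least 3 more loops, 17 were lower (8.81%) and 7 higher in ESCs.

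**Figure D3:**
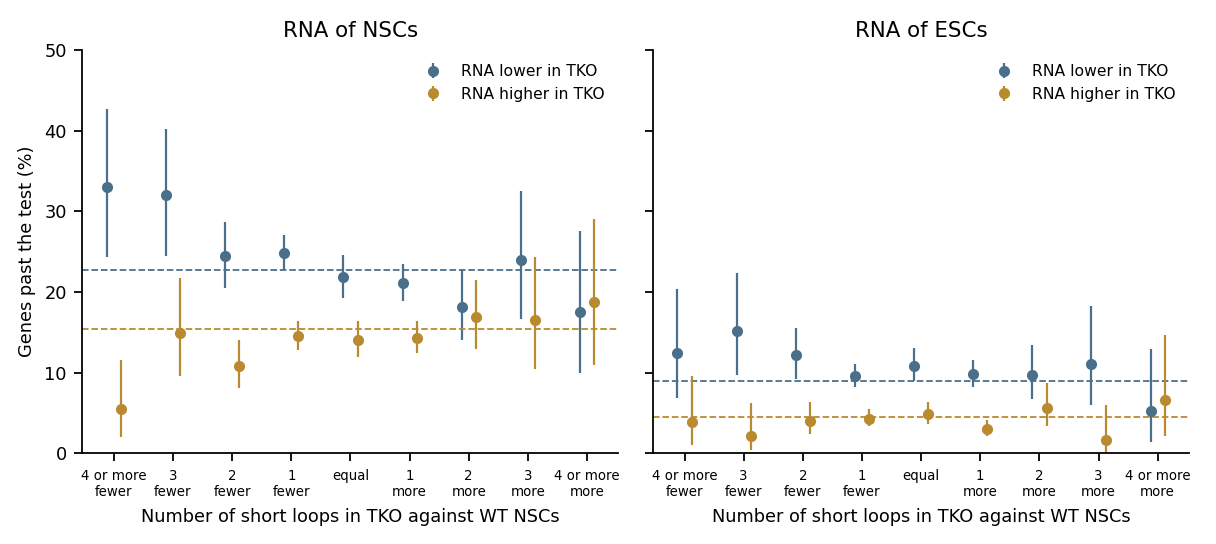
Percent of tested genes higher and lower in TKO (limma adjusted p under 0.05) by the change in the number of short loops from the WT to the TKO list, in NSCs and in ESCs, with exact binomial 95% intervals. Dashed lines mark genes at captured fragments outside the regions left out. In NSCs the share of lower genes was 33.0% with 4 or more loops fewer and 17.5% with 4 or more loops more.

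Genes of neural stem cells and radial glia had short loops mainly in the WT list. Of 18 listed genes of this kind at a captured fragment in the regions kept, 7 had a short loop: Nes, Sox1, Fabp7, Slc1a3, Ptprz1, Hopx and Ednrb. They had 14 short loops in WT and 5 in TKO, 5 genes having them in WT only. Over all genes with a short loop, 2169 of 7043 had them in WT only, and the lists held 8023 and 7260 short loops. All 7 genes were lower in TKO NSCs, with a median log2 fold change of -2.02, beside 22.8% lower and a median of -0.03 over genes at captured fragments. Counts for this list and those below are over genes at captured fragments, of which 7043 of 17215 had a short loop. RNA calls are read beside 15.4% higher and 22.8% lower. The 6 neural stem cell markers, 4 of which are among these genes, were lower too, and whether fewer neural cells in the TKO culture set both readouts was not tested.

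Fabp7 encodes a brain fatty acid binding protein of radial glia. Its fragment, chr10:57781828-57786862, had WT loops of 36.0 and 46.1 kb with scores of 5.98 and 6.21 to fragments without a gene, and none in TKO. Its RNA read 16157, 14872 and 20804 in WT and 3726 and 6370.0 in TKO, without overlap (log2 -1.81, SE 0.19, limma adjusted p = 1.99e-05). Slc1a3, the glial glutamate transporter GLAST, had WT loops of 77.9 and 93.2 kb (5.05 and 6.55). It fell from 3756, 4234 and 4406 to 837 and 813 (log2 -2.32, SE 0.09, adjusted p = 2.06e-08).

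Sox1, an early neuroectodermal transcription factor, had 1 WT loop of 93.2 kb with a score of 5.09, and Ptprz1, a receptor phosphatase of glial progenitors, 1 of 82.4 kb with 5.06. Both scores lie next to the lists' minimum. Sox1 RNA was 7919, 6912 and 9469 in WT and 1892 and 2080.4 in TKO (log2 -2.02, SE 0.11, limma adjusted p = 2.15e-07). Ptprz1 was 3630.3, 4037 and 5024 against 807 and 1106 (log2 -2.15, SE 0.15, adjusted p = 1.08e-06). Hopx, a homeodomain-only protein of outer radial glia, had 4 WT loops of 10.5 to 25.9 kb on its downstream side and a single TKO loop, of 16.0 kb upstream. It fell from 461, 457 and 514 to 197 and 292 (log2 -0.99, SE 0.20, adjusted p = 0.00216).

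Nes, the intermediate filament gene that defines neural stem cells, was the exception in the number of loops. Its fragment chr3:87970911-87976017 had 3 short loops in WT and 4 in TKO, and the loop to Bcan (brevican, a brain proteoglycan) over 25.8 kb was in both with scores of 12.94 and 12.70. Nes RNA nonetheless fell from 66722, 58916 and 60381 to 26799 and 31666 (log2 -1.09, SE 0.08, limma adjusted p = 1.47e-06). Zic2, a zinc finger factor of the dorsal neural tube, likewise had the same 2 loops in both lists (15.6 and 25.9 kb) while its RNA went from 8406, 7759 and 9042 to 2064 and 1762 (log2 -2.14, SE 0.09, adjusted p = 2.91e-08). RNA of both genes was thus lower with their strongest short contacts listed in both genotypes.

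Olig1 had the largest number of WT short loops among the glial genes. Olig1 and Olig2 encode bHLH factors of oligodendrocyte precursors and stand side by side on chromosome 16. The Olig1 fragment, chr16:91268439-91273550, had 9 WT short loops of 10.1 to 97.2 kb with scores of 5.46 to 12.16, and none of the 9 was listed in TKO. The Olig2 fragment had 2 WT loops, to chr16:91299599-91305272 and chr16:91310385-91315707, and Olig1 was looped to the same 2 fragments, with scores of 12.16 and 8.66 from Olig1 and 7.91 and 7.81 from Olig2. The contact between Olig1 and Olig2 themselves, over 45.8 kb, was in both lists: from both ends in WT and from Olig2 in TKO, with 11.42. Olig1 RNA in NSCs was 918, 1126 and 1477 in WT and 202 and 158 in TKO, well apart (log2 -2.68, SE 0.20, limma adjusted p = 1.91e-06), and Olig2 814, 1115 and 1464 against 45.9 and 17.6 (log2 -5.22, SE 0.36, adjusted p = 1.08e-06). In ESCs Olig1 read 1414, 1693 and 1582 against 1334 and 1196 and did not pass (log2 -0.30, adjusted p = 0.118), and the change differed between the cell types by -2.38 (interaction, SE 0.25, adjusted p = 2.23e-05; 20.7% of all 15369 genes passed this test). Oligodendroglial markers were low in both genotypes (Pdgfra and Mbp summed to 591 to 749 in WT and 821 to 840 in TKO), and Sox10 was not listed.

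Astroglial genes with short loops numbered 6 of 10, with 11 loops in WT and 6 in TKO, and 4 were lower, 1 higher and 1 did not pass. Clu (clusterin, a secreted chaperone) kept its loop of 94.2 kb in both lists, with scores of 8.43 and 7.13, while its RNA went from 11916, 10364 and 10056 to 830.2 and 613 (log2 -3.91, SE 0.12, limma adjusted p = 2.88e-09). Ptgds (prostaglandin D2 synthase) had 2 loops in each list, of which that of 35.8 kb to the fragment of C8g and Fbxw5 was shared. It read 582, 509 and 445 in WT and 5.51 and 7.81 in TKO (log2 -6.07, SE 0.32, adjusted p = 1.57e-07). Id3, an inhibitor of bHLH factors, rose from 7697, 8099.8 and 8344 to 9951 and 13483 (log2 0.53, SE 0.10, adjusted p = 0.00207) with 5 WT loops, 2 of them in TKO. The fall of Sparcl1 (log2 -0.87, SE 0.30, adjusted p = 0.0396) did not hold under 6 alternatives, where the adjusted p reached 0.382 without TKO line 1. The sum of 3 astrocyte markers overlapped between genotypes (59.9 to 123 against 26.6 to 70.3), while Gfap among them did not and was lower (39.3, 82.3 and 52.4 against 13.8 and 7.81, log2 -2.31, adjusted p = 0.00778).

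Genes with many short loops in WT and few in TKO came from several pathways. Ptn encodes pleiotrophin, a secreted growth factor of neural progenitors. Its fragment, chr6:36805648-36810730, had 9 WT loops, all upstream, of 41.4 to 93.4 kb and with scores of 5.45 to 10.1. Of these, 8 formed an unbroken run inside the body of a neighbouring gene, and none was listed in TKO. Ptn RNA was 44021, 38899 and 51737 in WT and 27248 and 15011 in TKO, the lines of each genotype spreading but not overlapping (log2 -1.14, SE 0.19, limma adjusted p = 6.81e-04). In ESCs it was 124, 135 and 161 against 258 and 148 and did not pass (adjusted p = 0.309).

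Mtss2, which encodes an actin-binding protein of the MIM family, had 10 WT loops upstream of chr8:110720188-110725349, of 37.3 to 99.4 kb and scores of 5.67 to 12.14. In TKO only that of 78.3 kb was listed, with a score of 6.60 against 7.64 in WT. Its RNA fell from 9179.6, 8912 and 9374 to 2869.9 and 3035 in NSCs (log2 -1.63, SE 0.06, limma adjusted p = 2.12e-08). In ESCs it read 1153, 1583 and 1413 against 1442 and 1162 (log2 -0.08, adjusted p = 0.765), on a chromosome whose ESC median was -0.41.

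Pcp4l1, a brain gene related to the calmodulin regulator Pcp4, had 13 WT and 5 TKO loops from chr1:171194642-171199761. The 4 WT loops on its upstream side, 10.4 to 72.0 kb away toward Tomm40l, Apoa2 and B4galt3, were not listed in TKO, and all 5 TKO loops ran downstream. Of the 13 WT loops, 3 were shared in the same direction and 1 was listed from its other end. Its RNA went from 14176, 15974 and 13371 to 3260.2 and 3035 (log2 -2.20, SE 0.08, limma adjusted p = 1.21e-08), and in ESCs from 51.5, 78.4 and 72.5 to 90.1 and 81.7 (adjusted p = 0.588).

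A larger loop number in WT did not always go with lower RNA in TKO. Ptpra, a receptor tyrosine phosphatase gene that shares its fragment with Gm52562, had 11 WT loops, 9 of them into its own body, and none in the TKO list; 1 of the 11 was listed from both ends in TKO and 10 were not listed. Its RNA was 6478, 6487 and 6417 in WT and 5643 and 5959 in TKO and missed the threshold (log2 -0.16, SE 0.06, adjusted p = 0.0682, range of adjusted p over the alternatives 0.0396 to 0.304). Isg20l2, a nucleolar exonuclease gene, and Rrnad1 share chr3:87929498-87934585, with 13 WT and 4 TKO loops, all 4 shared. Isg20l2 read 3082, 2858 and 3127 against 2987 and 2490.2 (log2 -0.15, adjusted p = 0.236), and Rrnad1 1449.8, 1325 and 1673 against 1672 and 1627 (log2 0.16, adjusted p = 0.278). Klf2, the only one of 11 pluripotency genes with a short loop, had 4 in WT and 1 in TKO, none in common, and rose from 206, 176 and 225 to 392 and 308 (log2 0.78, SE 0.21, limma adjusted p = 0.0133). Without TKO line 1 that call was lost (adjusted p = 0.122).

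**Figure D4:**
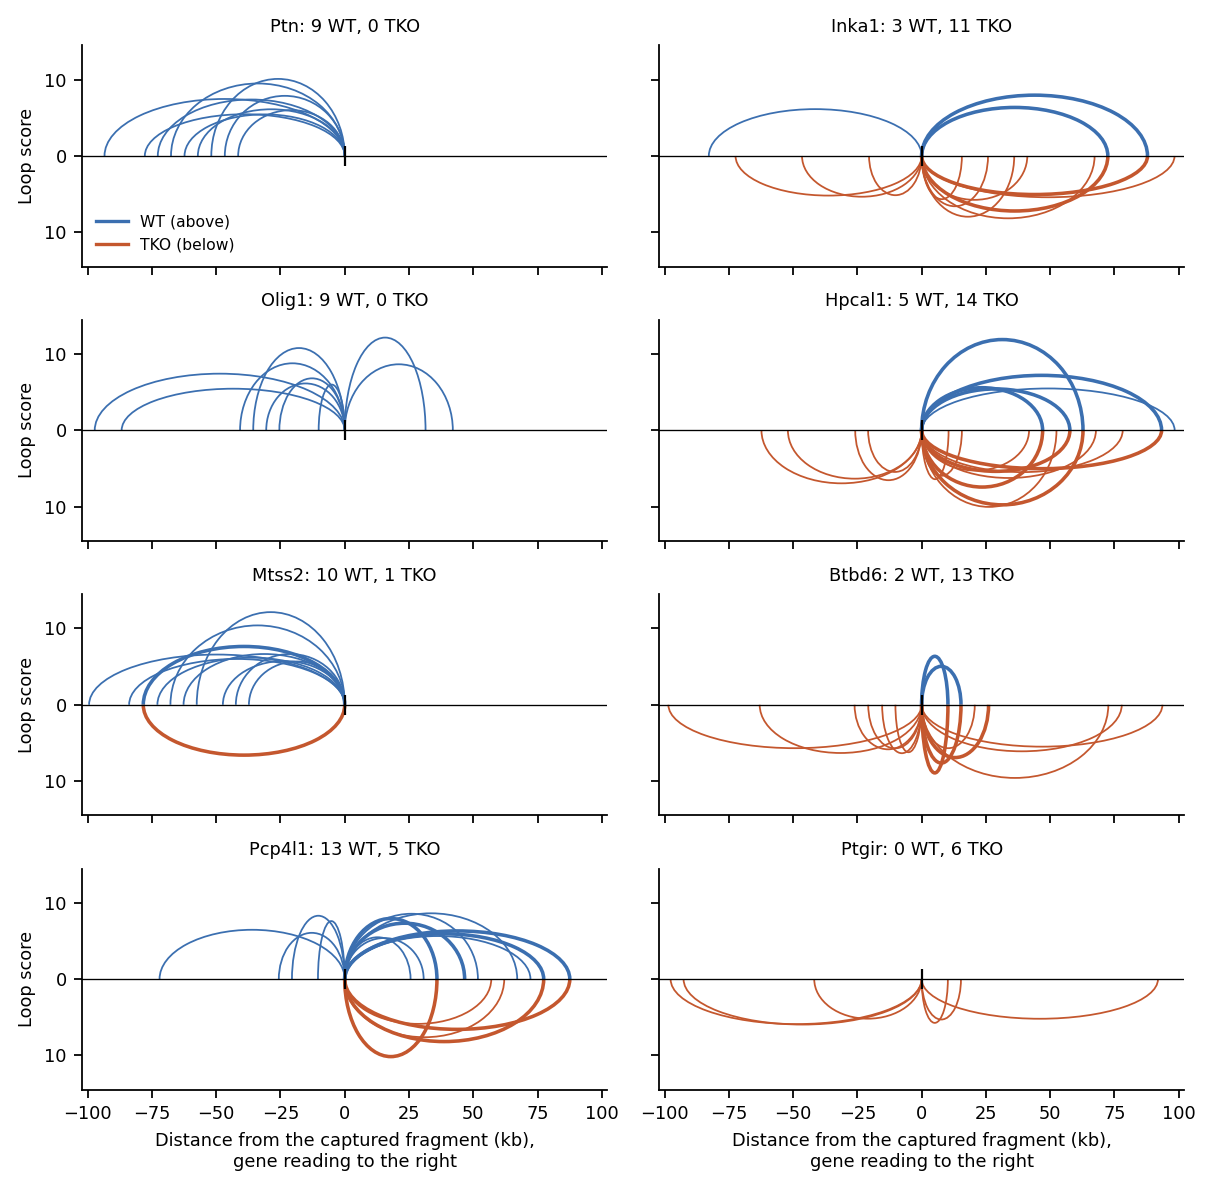
Short loops of 8 captured fragments, as arcs from the fragment at 0 to the other end, in kb along the gene's reading direction (Olig1 in chromosome order), WT above and TKO below the line. Height is the authors' score, and a thick arc marks a loop that the other list held in any direction. The 9 Ptn and 9 Olig1 arcs stand above the line only, and Btbd6 and Hpcal1 have 13 and 14 below it.

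On the other side, Inka1 had more loops and higher RNA in TKO. It encodes an inhibitor of the PAK4 kinase that is known from neural crest and mesoderm. Its fragment, chr9:107982643-107987689, had 3 WT and 11 TKO loops, 2 in common, and 9 of the TKO loops had scores between 5.14 and 8.17 and were not listed in WT. RNA was 244, 149 and 199 in WT and 1605 and 1234 in TKO NSCs, far apart (log2 2.86, SE 0.21, limma adjusted p = 2.01e-06), and 43.9, 28.1 and 26.2 against 31.4 and 23.1 in ESCs (adjusted p = 0.843). The mesodermal marker sum, mostly T, was higher in the same TKO NSC libraries, as was that of fibroblasts, apart from Col1a1. The mesodermal markers Mixl1 and Tbx6 were not called.

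Hpcal1, a neuronal calcium sensor gene, had 5 WT and 14 TKO loops from chr12:17689520-17694927. In common were 4, at 47.1, 57.7, 62.8 and 93.3 kb downstream within the gene, and 4 TKO loops of 20.8 to 62.3 kb ran upstream, where WT had none. Its RNA rose from 2556, 2914 and 2563 to 3909 and 3565 (log2 0.48, SE 0.09, limma adjusted p = 9.55e-04). Slc29a1, the nucleoside transporter ENT1, had 6 loops in TKO alone, 1 of which WT listed from the other end. It rose in NSCs from 1578, 1498 and 1769.6 to 2879 and 2809 (log2 0.82, SE 0.09, adjusted p = 3.51e-05) and also in ESCs (log2 0.61, SE 0.09, adjusted p = 2.84e-04). Ptgir, the prostacyclin receptor gene, had 6 loops in TKO alone, with scores of 5.18 to 5.95, and read 0, 13.0 and 7.77 in WT and 75.3 and 50.7 in TKO (log2 3.66, SE 1.07, adjusted p = 0.0190, lost without either TKO line, up to 0.116 without line 1).

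Other fragments with more loops in TKO had RNA that was lower or not called. Btbd6, a BTB-domain gene, had 2 WT loops, both kept, and 13 TKO loops from chr12:112972375-112977521, 10 of them not listed in WT. Its RNA was 972, 991 and 881 in WT and 595 and 795 in TKO (log2 -0.46, SE 0.14, limma adjusted p = 0.0238, lost without WT line 1, WT line 2 or TKO line 1, up to 0.222 without the last). Nsmf, whose product carries NMDA receptor signals to the nucleus, had 9 WT and 15 TKO loops and RNA of 3235, 3151 and 3401 against 2956 and 2919 (log2 -0.15, adjusted p = 0.129). H1f4, a linker histone gene, had 1 and 8 loops and read 44.4, 49.8 and 113 against 25.7 and 42.9 (adjusted p = 0.196). Exosc4, a subunit of the RNA exosome, had 1 and 8 and read 2105, 1984 and 1762 against 2184 and 2243 (adjusted p = 0.144). Prrt2, a synaptic membrane protein gene, had 7 TKO loops from 2 fragments and none in WT, with 36.2, 26.0 and 55.4 against 18.4 and 24.4 (adjusted p = 0.290).

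**Figure D5:**
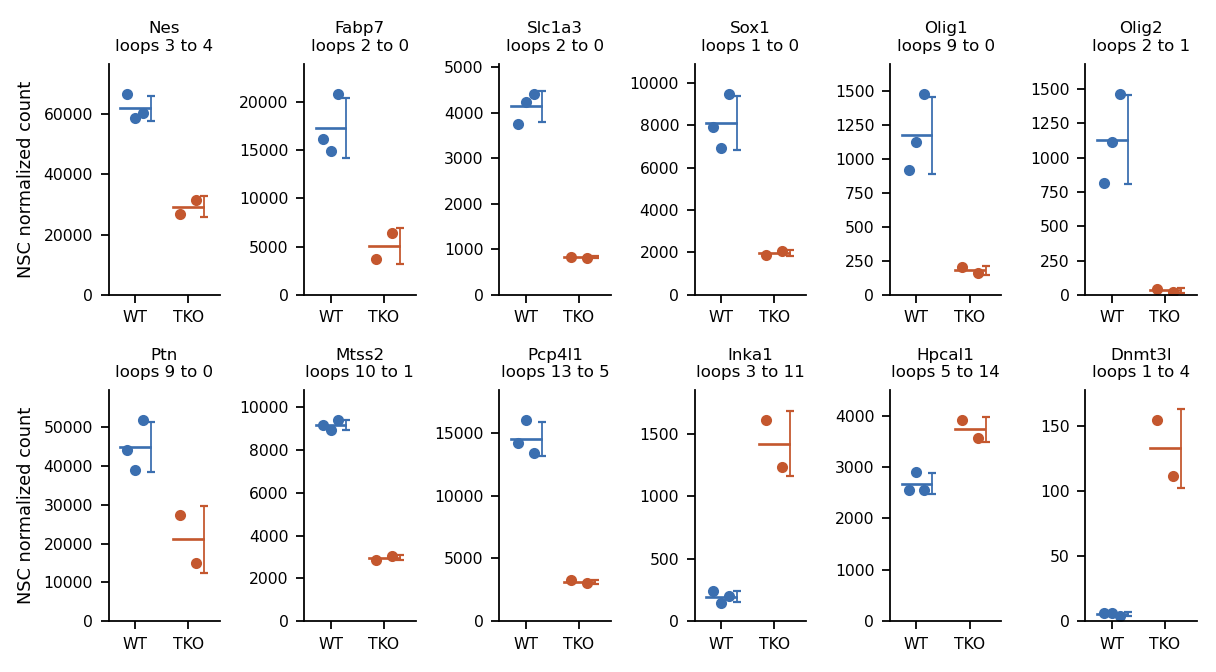
RNA of 12 genes at short loops in the 3 WT and 2 TKO NSC libraries, as normalized counts. Points are libraries, the line is the mean and the bar the SD. TKO libraries lie below WT in Nes, Fabp7, Slc1a3, Sox1, Olig1, Olig2, Ptn, Mtss2 and Pcp4l1 and above in Inka1, Hpcal1 and Dnmt3l.

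DNA methylation genes had short loops in 7 of 11 cases, 13 loops in WT and 16 in TKO, and 2 were higher, 2 lower and 3 not called, which is near the background. Dnmt3l, the cofactor of de novo methyltransferases that is high in ESCs, had 1 WT and 4 TKO loops, and its shared loop of 98.8 kb scored 5.39 in WT and 11.40 in TKO. In NSCs it read 6.20, 6.50 and 3.89 in WT and 154 and 111 in TKO (log2 4.36, SE 0.61, limma adjusted p = 1.79e-04). In ESCs it read 13042, 13938 and 13958 against 15069 and 14559. Dnmt3b, a de novo methyltransferase, had 1 loop, in WT, at 5.04, and rose from 485, 491 and 635 to 3515 and 2113 (log2 2.35, SE 0.19, adjusted p = 3.72e-06). Pluripotency marker sums were higher in the same TKO libraries. The fall of Dnmt1, the maintenance methyltransferase, was small (log2 -0.19, SE 0.06, adjusted p = 0.0348) and lost under 7 alternatives (up to 0.130 without TKO line 1), and its single loop was shared.

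Genes of looping and insulation had short loops in 8 of 11 cases, with 10 in WT and 8 in TKO. Of these, 3 were higher, 1 lower and 4 not called, with a median of 0.03. Ctcf had 3 loops in each list, of which those of 10.5 and 21.0 kb into its own body were shared. It read 5876, 5658 and 6034 in WT and 5116 and 5171 in TKO, a small fall (log2 -0.19, SE 0.06, limma adjusted p = 0.0378) that 6 alternatives did not keep (up to 0.133 without TKO line 1). Med12, a Mediator subunit, rose from 1824, 1861 and 2159 to 2911 and 2796 (log2 0.55, SE 0.09, adjusted p = 6.26e-04), with 2 loops in WT and 1 in TKO. The cohesin regulators Wapl and Pds5b did not pass (log2 -0.05, SE 0.07, adjusted p = 0.599, and 0.01, SE 0.07, adjusted p = 0.949).

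Imprinted genes had short loops in 4 of 15 cases, 3 in WT and 6 in TKO, and all 4 were higher in TKO NSCs (median log2 0.73), beside 15.4% of genes at captured fragments. H19 had 1 loop, in TKO, of 89.4 kb to the fragment of Igf2 with a score of 5.14, and went from 546, 580.3 and 313 to 34432 and 14479 (log2 5.59, SE 0.32, limma adjusted p = 2.47e-07). Meg3 had 1 loop, in WT, of 87.4 kb to the fragment of Dlk1 with 6.31, and rose from 17897, 21032 and 19069 to 36993 and 34114 (log2 0.88, SE 0.07, adjusted p = 3.59e-06). The paternally expressed Ndn and Nnat rose by 0.57 (SE 0.06) and 0.45 (SE 0.10), with 2 loops in TKO alone and with 2 shared loops plus 1 in TKO.

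Neuronal genes had short loops in 7 of 17 cases, 10 in WT and 8 in TKO, and 3 were higher, 0 lower and 4 not called, with a median log2 fold change of -0.02. Nefl, the light neurofilament subunit, rose from 308, 303 and 319 to 2908 and 1578 (log2 2.79, SE 0.21, limma adjusted p = 2.02e-06), with 1 WT loop of 41.0 kb at 5.06 to the fragment of Nefm. Dlx1, a homeobox factor of interneurons, rose from 281, 482 and 729 to 1723 and 1829.6 (log2 1.94, SE 0.29, adjusted p = 2.95e-04), and its loop of 77.7 kb was listed from both ends in TKO. The Notch ligand gene Dll3 rose by 0.99 (SE 0.23, adjusted p = 0.00492, but 0.0641 without TKO line 2), with 2 WT and 3 TKO loops. Tubb3, Elavl3, Neurog1 and Dll1 did not pass.

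Of 21 Notch, Wnt and FGF genes, 4 had short loops, 12 in each list, and 2 were higher and 1 lower. Fgfr3, an FGF receptor, had 7 WT and 8 TKO loops, 6 of them shared and in a run from 15.2 to 41.2 kb upstream, and its RNA of 990.0, 1358 and 929.5 against 591 and 1451 overlapped (adjusted p = 0.604). Dusp6, a feedback phosphatase of ERK, rose from 12464, 13039.6 and 12481 to 18023 and 18395 (log2 0.52, SE 0.06, limma adjusted p = 2.27e-05) with 4 loops in WT and 2 in TKO. Notch2 was lower (log2 -1.18, SE 0.08, adjusted p = 6.73e-07) with 2 loops in TKO alone. Of 11 cell cycle genes, 5 had short loops, 6 in WT and 10 in TKO, and 3 were lower and 0 higher. E2f1 was lower under every alternative run (log2 -0.41 in the test reported), while the changes of Cdk4 (log2 -0.21) and Mcm2 (log2 -0.23) were lost without single lines, with adjusted p up to 0.103 (without TKO line 2) and 0.203 (without TKO line 1). Of 7 housekeeping genes, 4 had them, 8 in WT and 5 in TKO, and 3 were lower and 1 higher. Actb and Sdha were among the lower ones (log2 -0.41 and -0.19), and Rplp0 was higher (log2 0.24). The calls of Sdha and Rplp0 were lost without TKO line 1 (adjusted p = 0.125 and 0.0920).

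In each of the remaining lists at most 3 genes had a short loop. None of the 3 POU class 3 genes at captured fragments had one, and 1 of 8 forebrain patterning genes did (Rax). Of 13 dorsoventral patterning genes, 2 had them, Zic2 among them. Mid-hindbrain and spinal patterning had 3 of 12, among them Pax8 and Hoxa2, and 4 loops in each list. Hoxa2 passed (log2 1.54, SE 0.55, adjusted p = 0.0478) but not under 7 alternatives, with up to 0.365 without TKO line 2. Of 7 trophoblast and epithelial genes, 2 had short loops, 1 in WT and 6 in TKO. Cldn6, a tight junction gene of embryonic epithelia, had 5 of these 6, up to a score of 11.66, with 262, 309.6 and 352 in WT against 817 and 392 in TKO (log2 0.89, SE 0.27, limma adjusted p = 0.0230, lost without WT line 1, WT line 2 or TKO line 1, up to 0.304 without the last). Fibroblast and mesenchymal genes had 1 of 7, Tagln, an actin-binding smooth muscle gene with 3 loops in each list and lower RNA in TKO (log2 -2.07, SE 0.11, limma adjusted p = 1.95e-07), and mesodermal genes 1 of 5, Tbx6, with 2 in each.

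Genes with at least 2 short loops in one list and fewer in the other were also ranked by their RNA change, so that the values of the top genes are a description. The largest fall was that of Gm5089 next to Zic2 (2 WT loops, none in TKO), which read 648, 614 and 575 in WT and 3.67 and 1.95 in TKO. It was followed by Olig2, given above, and by Folr1, a folate receptor gene, with 2409, 2229 and 1663 against 58.8 and 77.1. Folr1 had 3 WT loops, of which the strongest scored 13.64, and 1 TKO loop, none in common. Rgcc, a regulator of the cell cycle, had 2 WT loops and read 495, 555 and 339 against 33.1 and 5.85. Mt3, the brain metallothionein, had 4 WT and 2 TKO loops along the metallothionein cluster of chromosome 8 and read 2403, 2706 and 2328 against 95.5 and 107. The largest rises included genes of low RNA. Best1, an anion channel gene with 7 WT and 10 TKO loops, read 2.07, 0 and 0 in WT and 34.9 and 61.5 in TKO. Dusp2, a phosphatase of MAP kinases, had 1 WT and 4 TKO loops and read 2.07, 6.50 and 7.77 against 129 and 74.2. Hoxd10 was at 0 in all 3 WT libraries and at 53.3 and 12.7 in TKO, with 2 loops in TKO alone.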

How the data were processed

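Promoter contacts of 1 WT and 1 TKO NSC library and RNA of 10 libraries were analysed. The deposited loop lists give both anchor fragments on mm10 and a score, the authors' own value per loop, used only to describe and filter loops; no source used here gives the loop caller. The fragment listed first was taken as the captured one. The deposited RNA values (unit: signal) are the authors' read counts over DESeq2 size factors, per the labels. Each cell type has its own table and normalization, and levels of the 2 were not compared. The submitters' processing notes name STAR 2.7.3a, Trim Galore 0.6.5, DESeq2 1.40.2 and featureCounts. The sources used here do not say whether counting used strand; without it, reads of a gene and its antisense partner cannot be told apart. Within a tolerance of 1e-06, 100% of values were whole multiples of 1 read's worth, and the recovered reads served for the count tests. Among low recovered counts, 75.2 to 82.7% were even, depending on the library. The recovered reads may therefore not be independent units, while edgeR and DESeq2 took them as such.

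TKO and WT were compared with limma 3.58.1 (trend, two-sided) on log2(value + 1) over genes with a mean of at least 10, 17744 in NSCs and 17033 in ESCs, and the difference between cell types as an interaction over 15369 genes. The interaction took ESC and NSC libraries as independent, although their sample codes recur across the cell types. The fit of TKO against WT was tested on simulated data. Alternatives were edgeR 4.0.16 and DESeq2 1.42.0 on recovered reads, other pseudocounts, filters and scalings, the replicate number as a block, and each library left out. A gene belonged to a captured fragment that holds its start in RefSeq (GRCm38.p6), or either end of its span where no strand is given; 17717 of 19426 RNA symbols matched. Genes were named if they stood in 1 of 18 gene lists and at a short loop, had the 10 largest differences in loop number in either direction (ties by RNA change), the most loops or the highest scores, or, with unequal loop numbers, the 10 largest RNA changes in either direction. Some genes that this rule names are not reported here. The members, gene lists and tests were chosen with earlier results of these data known. Loops had no test, and intervals are exact (Clopper-Pearson or Poisson) at 95%, for counting error only.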

Additional observations from a re-analysis of the deposited data

Results flagged for a closer look

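The TKO effect on RNA differed between NSCs and ESCs for 7 of 16 tested among the 20 genes whose short loops differed most in number, by a test of the difference itself (interaction in limma, NSC minus ESC, log2 scale, adjusted over 15369 genes, of which 20.7% passed). Among genes with fewer loops in TKO it was -2.38 for Olig1 (SE 0.25, adjusted p = 2.23e-05), -1.55 for Mtss2 (SE 0.17, adjusted p = 2.81e-05), -1.63 for Ptn (SE 0.34, adjusted p = 0.00350) and -2.57 for Pcp4l1 (SE 0.24, adjusted p = 6.45e-06). In all 4 the NSC libraries of TKO lay below those of WT, and the ESC test did not pass. Mtss2 stands on chromosome 8, whose ESC median was -0.41. The interaction test took the ESC and NSC libraries as independent. Their sample codes recur across the 2 cell types, so the libraries may come from the same lines. Such a pairing was not modelled, and the SEs and adjusted p-values of the interaction do not take it into account.

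Among genes with more loops in TKO the difference was 3.09 for Inka1 (SE 0.49, adjusted p = 5.55e-04), 1.28 for Tor4a (SE 0.36, adjusted p = 0.0213) and -0.996 for Btbd6 (SE 0.23, adjusted p = 0.00813). Tor4a, a torsin-family ATPase gene with 1 WT and 7 TKO loops, read 254, 292 and 190.4 in WT and 422 and 336 in TKO NSCs, and 189, 166 and 175 against 100.6 and 125 in ESCs. Its NSC call (log2 0.64, adjusted p = 0.0449) was lost under 6 alternatives. Btbd6 read 352, 430.3 and 469 in WT and 616 and 586 in TKO ESCs, with log2 0.54 there and -0.46 in NSCs, but the ESC test did not pass (adjusted p = 0.0538). Marker sums of neural stem cells, fibroblasts and pluripotent cells differed between genotypes in NSCs, and their part in these differences was not tested.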

How the results depend on the processing

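Counts followed the limits set. A score of at least 6 left 4094 WT and 3659 TKO short loops, shared in 29.1% and 32.5%; at least 7 left 2235 and 1951 (27.7% and 31.7%). Under 50 kb there were 3401 and 3226 (36.3% and 38.3%, median 25.7 and 25.6 kb), and under 150 kb 12849 and 11498 (28.1% and 31.4%, median 83.4 and 82.7 kb). Loops of both kinds were shared in 41.0% and 46.1%, all chromosomes gave 9256 and 9505 loops shared in 33.0% and 32.1%, and other ends within 5 or 10 kb gave 38.5% and 41.6%, and 42.7% and 46.1%. Genes in the WT list only were 1342 under 50 kb, and genes in both lists 1470 under 50 kb and 1507 at a score of at least 6. Except where other ends within 5 or 10 kb were allowed, both shares count the same pairs, so the shorter list has the larger share. The WT list was the shorter one only with all chromosomes kept.

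NSC calls in RNA were 3236 higher and 3462 lower. Leaving out chromosomes 8 and 11 and distal 6 gave 2082 higher and 3002 lower in NSCs, and 594 and 699 in ESCs, against 1242 and 1195. Equal totals gave 3657 and 3086, edgeR 3303 and 3266, and DESeq2 3390 and 3578; in ESCs edgeR gave 1220 and 1164, and DESeq2 1490 and 1383. Left-out lines gave 2318 to 2916 higher and 2787 to 2965 lower in NSCs, and 527 to 1258 and 581 to 1044 in ESCs (527 and 581 without TKO line 2, and 727 lower without WT line 2). Among genes with at least 3 loops fewer they gave 17 to 24 higher and 69 to 74 lower, and with at least 3 more 23 to 33 and 30 to 34. With loops under 50 kb those sets gave 6 and 18, and 10 and 10; with scores of at least 6, 8 and 46, and 10 and 17; with genes within 5 kb of the fragment, 43 were higher among those with fewer loops. The first 2 of these limits leave fewer genes and the last takes in more. The numbers tested under them are not given, nor the lower genes under the last. These counts therefore do not show whether the share of 32.4% lower genes holds under these limits. The share of lower genes among those with fewer loops in ESCs without chromosome 8 was added after seeing the data. Same-numbered WT and TKO lines did not deviate together (correlations within 0.031 of 0 in NSCs), so the numbers do not pair them; the replicate block gave 3042 and 3233 calls in NSCs and 1027 and 885 in ESCs, and 25, 82, 32 and 39 in the sets. Of 110 named genes tested in NSCs, 75 were called, 51 of them under every alternative, 24 were lost under at least 1, 7 others gained a call and 0 changed sign. The depth of the loop lists in mapped pairs is unknown.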
